A study of Mus musculus with 27 samples.

Results

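The 10 genes described here are *Hspa5*, *Hsp90b1*, *Xbp1*, *Dnajb9*, *Herpud1*, *Sdf2l1*, *Pdia4*, *Edem1*, *Creld2* and *Manf*. *Xbp1* encodes a transcription factor, and the others encode chaperones and other proteins of the endoplasmic reticulum (ER). All 10 are induced when unfolded proteins build up there. They were taken by symbol from a table of 36333 genes, and all 10 were found. The table gave RNA-seq values for 27 samples from male *Mlx*KO mice, taken from skeletal muscle, liver and omental adipose tissue. Each tissue had 4 samples from 5‐month‐old and 5 from 20‐month‐old mice. Every mouse came from a cross between a line that carries Cre-ERT2 in the ROSA26 locus and Mlx Flox/Flox, and received 5 daily tamoxifen injections of 75 mg/kg in corn oil, i.p., after weaning at a weight of 15 g or more. Tamoxifen activates a Cre recombinase that the ROSA26 promoter drives in all cell types, and this removes the floxed exons of *Mlx* throughout the body. All 6 groups were made with the same floxed allele and the same treatment. The recombination is not complete, and the study's supplement lists more intact *Mlx* in skeletal muscle than in liver or adipose tissue, so tissue and the extent of deletion cannot be told apart. WT samples were not analysed here, so none of the values below compares *Mlx*KO with WT. At 5 months the same 4 mice gave all 3 tissues, and they are called mice A, B, C and D here, in the order of their numbers. The samples at 20 months share no numbers across tissues, and the supplement lists them under separate mouse numbers. Numbers in that list also run on from tissue to tissue and some recur, so whether older tissues share mice is not known. No pairing of the older tissues entered the tests. The names of the older samples carry the number 18 where the age label says 20 months. The supplement also gives 18 months for mouse numbers that end in the same digits as these samples.

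Proteins that enter the secretory pathway fold in the ER with the help of chaperones such as BiP, encoded by *Hspa5*, and GRP94, encoded by *Hsp90b1*. When folding falls behind, the sensors IRE1, ATF6 and PERK, encoded by *Ern1*, *Atf6* and *Eif2ak3*, start the unfolded protein response. IRE1 splices *Xbp1* mRNA into the form that encodes an active transcription factor, ATF6 is cut to release another, and PERK slows translation. The targets include chaperones, disulfide isomerases such as PDIA4, and parts of ER-associated degradation (ERAD), among them EDEM1 and HERPUD1. Hepatocytes secrete large amounts of protein and hold much ER. Gene-level values do not tell spliced from unspliced *Xbp1*.

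Each value is a read count per gene, scaled for depth and by a factor of each sample, and is called a level below. Samples held 14384695 to 25673919 reads on genes, and the members rested on 15 (*Sdf2l1* in a muscle) to 40628 reads (*Hspa5* in a liver). Tissue identity was as labelled: *Alb* was 26970 or more in each liver and at most 222 elsewhere, *Adipoq* was 532 to 1182 in adipose tissue and at most 17.8 elsewhere, and *Acta1* was 25482 or more in skeletal muscle and at most 428 elsewhere. *Mlx* itself ranged from 7.04 to 11.6 in skeletal muscle, from 8.19 to 13.9 in fat and from 18.8 to 32.4 in liver. That value also counts reads from exons outside the deleted part. The tissues are bulk samples, in which a change in the share of a cell type and a change of RNA per cell cannot be told apart.

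The promoters of several members hold ER stress elements, the DNA motifs through which ATF6 and XBP1 are known to act. They are shown as known features of these genes, and no relation between a motif and a level was tested. Of the 10 members, 9 have a promoter in the RefSeq set for GRCm38.p6 (250 bases before to 50 after the start of the gene). The ERSE (CCAAT and CCACG with 9 bases of any kind between them, on either strand) was in 0.119% of 32851 promoters and in 3 of the 9, *Hspa5*, *Hsp90b1* and *Creld2*. With up to 1 mismatch it was in 1.5% of promoters and in 5 of the 9, those 3 together with *Herpud1* and *Pdia4*. The ERSE-II (ATTGG and CCACG with 1 base between them) shares the CCACG letters with the ERSE and was in 0.0365% of promoters and in that of *Herpud1*. The 8-base UPRE, TGACGTGG, was in 0.676% of promoters and in 0 of the 9. These stretches lie at chr2:34772005-34772063 on the plus strand for *Hspa5*, chr10:86705513-86705676 on the minus strand for *Hsp90b1*, chr15:88819500-88819558 on the plus strand for *Creld2* and chr8:94386357-94386407 on the plus strand for *Herpud1*. Each is written 5′ to 3′ along its gene, with the fixed letters of the motif in capitals, and *Hsp90b1* holds the ERSE in both orientations.
Hspa5: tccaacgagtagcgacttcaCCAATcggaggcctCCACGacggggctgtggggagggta
Hsp90b1: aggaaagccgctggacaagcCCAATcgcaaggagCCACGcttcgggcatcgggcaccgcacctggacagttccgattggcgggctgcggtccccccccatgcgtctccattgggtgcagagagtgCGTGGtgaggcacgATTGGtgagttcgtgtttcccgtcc
Creld2: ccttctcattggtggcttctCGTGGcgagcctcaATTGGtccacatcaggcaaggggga
Herpud1: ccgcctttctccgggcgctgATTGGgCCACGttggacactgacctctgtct

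The livers of the 5-month-old mice differed widely from each other in most of the members, and 2 of the 4 stood far above all livers at 20 months. *Hspa5* was at 456 in the liver of mouse A, 1278 in B, 2896 in C and 2708 in D. At 20 months it was at 534, 550, 646, 988 and 531. The livers of C and D were 4.46 and 4.17 times the 20-month mean, whereas that of A was below each of the older livers. *Hsp90b1*, the other large chaperone, was at 477, 977, 2480 and 2375 in the livers of A, B, C and D. At 20 months it was at 475, 510, 572, 774 and 497.

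The widest range was that of *Sdf2l1*, which encodes a partner of ER DnaJ co-chaperones. Its level was 6.11 in the liver of A, 22.7 in B, 98.7 in C and 99.6 in D, and it was 7.58, 10.2, 17.5, 28.1 and 19.3 at 20 months. *Creld2*, a disulfide isomerase-like protein of the ER, was at 21.6, 70.5, 240 and 221 in the same mice and at 28.5 to 54.6 at 20 months. *Manf*, a secreted and ER-retained protein released under stress, was at 22.8, 63.1, 213 and 212, and at 38.98, 53.6, 68.8, 111 and 62.3 at 20 months. The order of the mice was thus the same for these 3 genes up to the 2 highest livers, which lay close together. *Pdia4* was at 134, 230, 638 and 576, and at 137, 191, 192, 247 and 164 at 20 months.

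The remaining members varied less. *Herpud1*, an ERAD scaffold protein, had another order, with 177 in A, 595 in B, 293 in C and 400 in D, against 245, 220, 224, 328 and 204 at 20 months. *Dnajb9*, an ER DnaJ co-chaperone that keeps IRE1 in check, was at 63.7, 83.4, 103 and 111, and at 55.2 to 82.1 at 20 months. *Edem1*, which takes misfolded glycoproteins to ERAD, was at 155, 168, 223 and 233, and at 130 to 194 at 20 months. *Xbp1* was at 171, 250, 267 and 236, within a range of 1.56 times, and at 215 to 295 at 20 months. In all, 8 of the 10 members in the liver of C and 9 in that of D exceeded every liver at 20 months. In the liver of B this held for 5, and in that of A for 0. Of all genes tested in liver, 23.3% in C, 22.7% in D, 30.4% in B and 25.7% in A exceeded every older liver. The liver of A was the lowest of the 4 for 10 of the 10 members, and below every older liver for 7, where 22.8% of genes in that liver were.

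**Figure D1:**
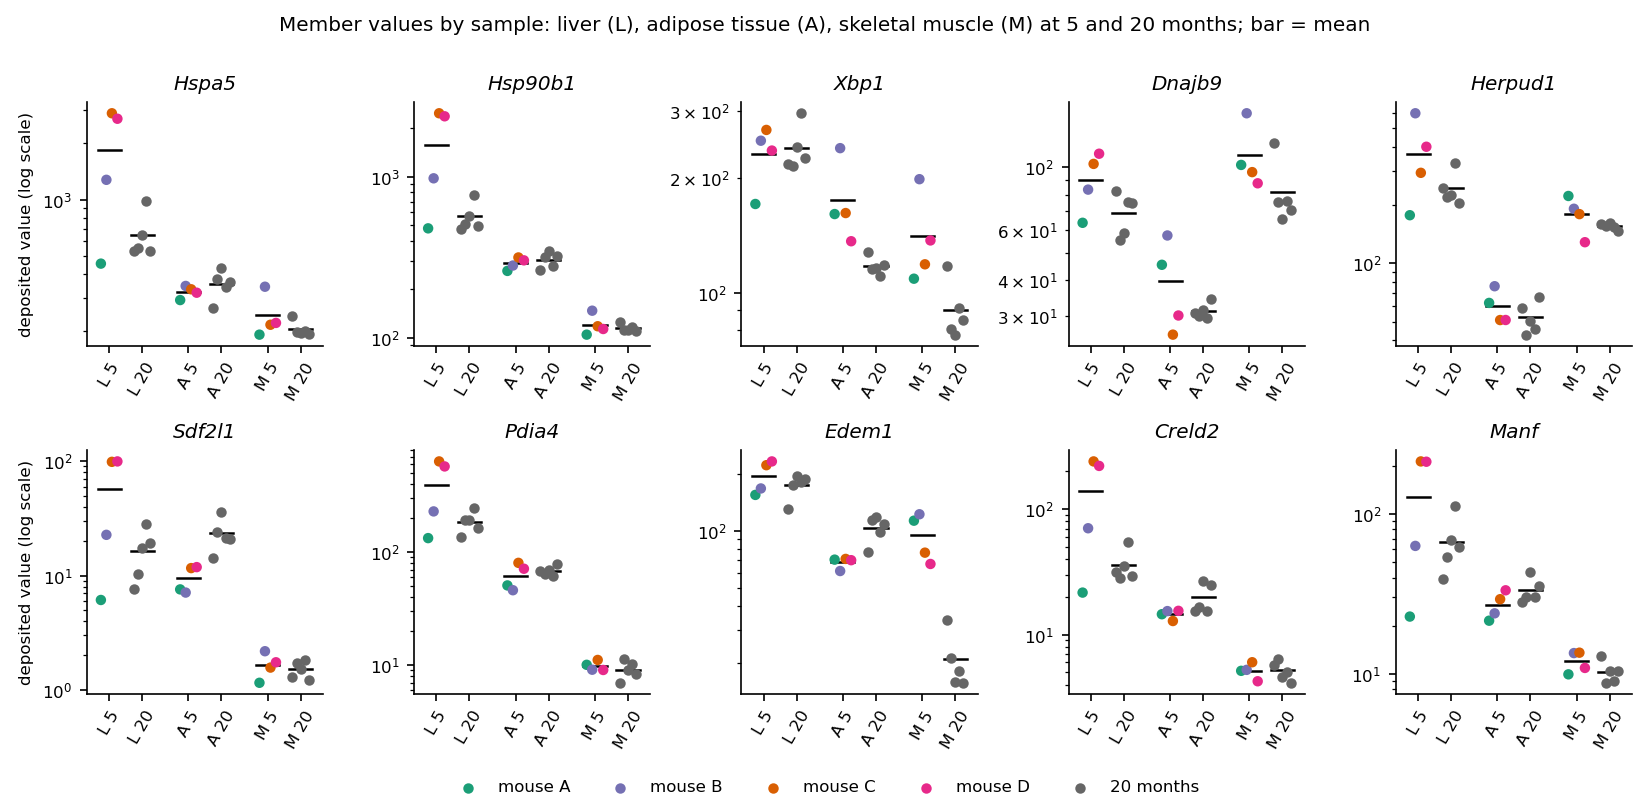
Levels (log scale) of the 10 members in liver (L), adipose tissue (A) and skeletal muscle (M) at 5 and 20 months, 1 point per sample; colours mark the 5-month-old mice, grey the 20-month samples, and bars the group means. The 5-month livers of mice C and D lie apart for *Hspa5*, *Hsp90b1*, *Sdf2l1*, *Pdia4*, *Creld2* and *Manf*, and *Edem1* in skeletal muscle separates the ages.

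In the other tissues of the same mice the members' levels lay closer together. In liver, the members' ratios of C to A ranged from 1.44 to 16.2 with a median of 4.99. In adipose tissue they ranged from 0.568 to 1.58 with a median of 1.08, and in skeletal muscle from 0.677 to 1.37 with a median of 1.12. For D over A the medians were 4.65, 1.08 and 0.992. In adipose tissue *Hsp90b1* and, up to the 2 highest, *Manf* kept the order of the livers on a smaller scale. *Hsp90b1* was there at 1.08, 1.21 and 1.16 times the level of A in B, C and D. *Manf* was at 21.5, 23.9, 29.3 and 33.3 there in A, B, C and D. *Sdf2l1* and *Pdia4* were higher in C and D than in A and B, with B below A. *Dnajb9* and *Herpud1* went the other way, with ratios of C to A of 0.568 and 0.816 and of D to A of 0.663 and 0.816. The SD of log2 levels among the 5-month livers was 1.24 for *Hspa5* and 1.84 for *Sdf2l1*, against a median SD of 0.19 over all genes tested in liver. It lay above that of 97.96% or more of these genes for 7 of the members, and above that of 73.2% for *Xbp1*, the least variable.

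Some other ER genes also had their highest levels in the livers of C and D. Those named here were chosen after their values were seen or for their likeness to the members over the same samples, so their order is a description. The summed level of the 12 stress sensors and transducers differed less, with 1111 in A, 1186 in B, 1229 in C and 1203 in D. *Derl3*, which encodes an ERAD membrane protein, was at 0.191 (3 reads) in A, 8.87 in B, 104 in C and 81.8 in D, and between 0.701 and 1.93 at 20 months. The chaperone *Hyou1* was at 101, 238, 439 and 451, against 89.4 to 184 at 20 months. *Calr*, a lectin chaperone, was at 504, 753, 1440 and 1425, against 442 to 865. *Sel1l*, the adaptor of the ERAD ligase, was at 160, 215, 341 and 363, against 122 to 198. The summed level of 8 cytosolic heat shock genes ran otherwise, with 3336 in A, 5349 in B, 2622 in C and 2571 in D. The summed levels of clock genes in these livers were 325, 395, 286 and 316, and those of plasma cell markers 862, 648, 834 and 720. Of that plasma cell sum, *Jchain* made up only 2.16, 0.509, 1.64 and 1.76, and the rest came from other genes of the list. Only 5 of the 9 genes on that list passed the filter in liver. Markers of the exocrine pancreas, a secretory tissue next to liver and omentum, summed to 4.20 in A, 3.78 in B, 9.55 in C and 11.1 in D, higher in the livers with high members, and to 10.99 to 15.4 in the older livers. Most of the sum was *Cela1* (3.42 to 10.4 in the 5-month livers), while *Prss2* and *Amy2b* were at 0 in every liver. The part of these signals was not tested. Time of day, feeding and the time from death to freezing are not given in the labels, and their part in the spread was not tested.

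**Figure D2:**
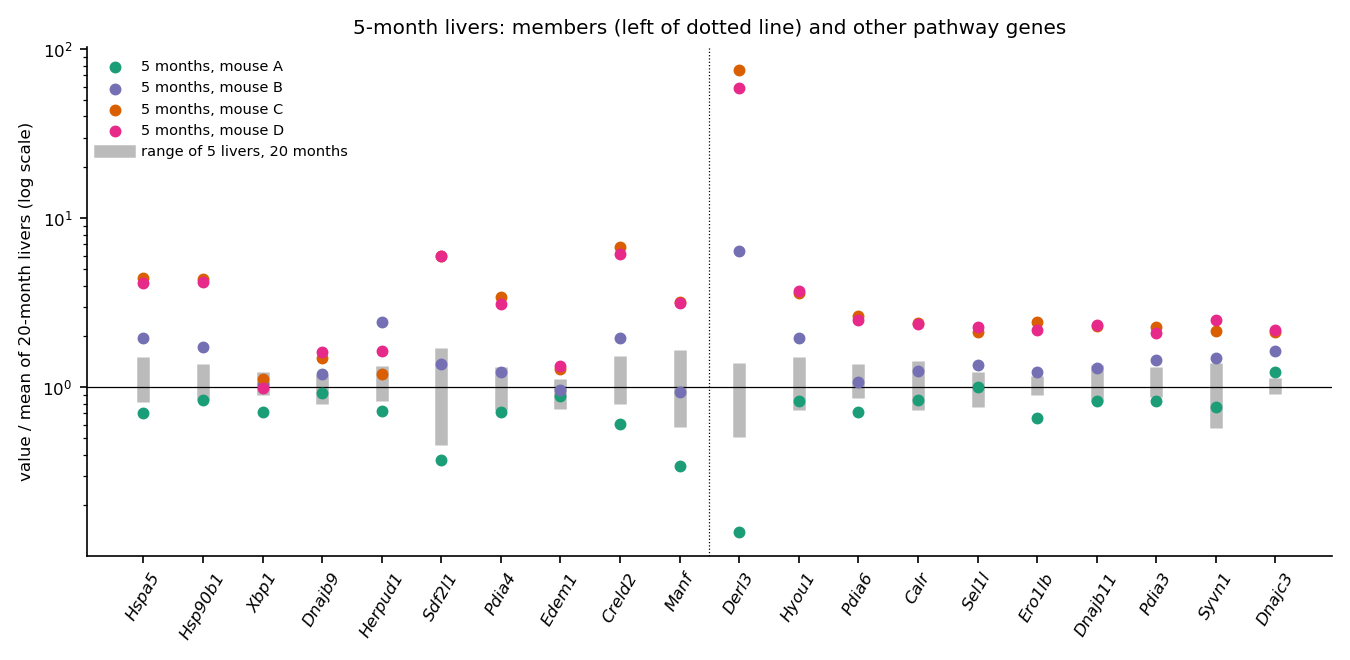
Level in each 5-month liver divided by the mean of the 5 livers at 20 months (log scale), with the range of the 20-month livers in grey, for the 10 members (left) and 10 other genes of ER folding and ERAD (right). Mice C and D lie above the grey range for 8 and 9 of the members, and *Derl3* spans the widest range.

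The question of the first comparison was which members differ between 5 and 20 months in liver. By limma on log2(level + 1), 0 of 10 members passed an adjusted p of 0.05, where 19.8% of the 12654 genes tested did, and 0 had ages that did not overlap, against 19.1% of genes. Of the 10 log2 differences (20 minus 5 months), 9 were negative, with a median of -0.67. The median over all genes tested was 0.00. *Creld2* had the lowest, -1.43 ± 0.584 (SE, limma adjusted p = 0.10), from 138 ± 109 (SD, n = 4) to 35.8 ± 10.8 (SD, n = 5). *Hspa5* was at 1834 ± 1169 (SD, n = 4) in the younger and 650 ± 195 (SD, n = 5) in the older livers, with a log2 difference of -1.21 (adjusted p = 0.0878 from limma; exact two-sided permutation test, p = 0.111). *Hsp90b1* had -1.21 (adjusted p = 0.0651 from limma; exact two-sided permutation test, p = 0.0794). The exact two-sided test of 4 against 5 mice can go no lower than 0.0159, the value given when the ages do not overlap. At an unadjusted p of 0.05, 3 members passed, *Hspa5*, *Hsp90b1* and *Creld2*, where 37.1% of genes did.

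The call in liver depended on the test and on the mice. On the recovered reads, edgeR called 3 members lower at 20 months (*Hspa5* with adjusted p = 0.0363, *Hsp90b1* with 0.0292 and *Creld2* with 0.0306), where 10% of genes were called lower. DESeq2 and a limma fit over all 27 samples, with or without the mouse as a block, each called these and *Pdia4*. That limma fit takes 1 spread per gene over all tissues, whereas the main fit took that of liver alone. In either direction, DESeq2 called 3463 of 12654 genes, and the fits over 27 samples 3172 of 15572, or 3213 with the block. Leaving out the liver of A gave 5 members by limma, where 1351 of 12581 genes were called. Without the livers of C and D, an alternative chosen after seeing the data, 0 passed, where 1466 of 12546 genes did. *Hspa5* and *Hsp90b1* then differed by -0.28 and -0.30. In that fit *Sdf2l1* (0.30), *Pdia4* (0.06), *Edem1* (0.09) and *Manf* (0.72) had positive differences, none past the threshold.

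Of the 3 sensors of the response, *Ern1* and *Atf6* were lower in the older livers, each with no overlap between ages. *Ern1* was at 38.5 ± 5.66 (SD, n = 4) in the younger and 23.9 ± 4.23 (SD, n = 5) in the older livers, and its log2 difference was -0.67 (limma adjusted p = 0.0154). *Atf6* was at 116 ± 14.6 (SD, n = 4) and 81.4 ± 14.3 (SD, n = 5), with a log2 difference of -0.52 (limma adjusted p = 0.0281). The call of *Atf6* was kept in 4 of the 9 fits without 1 liver and that of *Ern1* in 9. *Eif2ak3* was at 27.9 ± 3.22 (SD, n = 4) and 25.9 ± 4.74 (SD, n = 5), a log2 difference of -0.12 (limma adjusted p = 0.565). Without the livers of C and D the fall of *Ern1* was 0.83 (limma adjusted p = 0.0271) and that of *Atf6* 0.63 (limma adjusted p = 0.0544). Cell markers moved with age in liver too, and their part was not tested. The 6 hepatocyte markers had negative differences, 1 of them (*Tat*) past the threshold, and their sums were 117450 to 170890 at 5 months and 50885 to 108910 at 20 months. Of 7 macrophage markers 6 had positive differences and 1 (*Lyz2*) passed, with sums of 150 to 265 and 174 to 626. The older liver 74 had the lowest hepatocyte sum and the lowest sum of sensors and transducers (725, against 943 or more in the other older livers). Without it *Ern1* and *Atf6* differed by -0.75 (limma adjusted p = 0.0110) and -0.43 (limma adjusted p = 0.0328). Over the 5 lists of related ER genes, 14 of the 75 genes tested passed in liver (18.7%, against 19.8% of all genes). Of these 14, 13 were lower and 1 higher, and the median over the 75 was -0.16. Over all 12654 genes tested, 1239 were lower and 1269 higher. Lower were 3 of 12 sensors and transducers, 3 of 15 other chaperones, 4 of 17 ERAD genes and 3 of 19 genes of translocation and N-glycosylation, and 0 of 12 other disulfide enzymes. The largest falls were those of *Dnajc3*, a BiP co-chaperone (-0.81), the mannosidase *Edem3* (-0.79), *Stt3b*, a subunit of oligosaccharyltransferase (-0.68), and *Ern1*. The call of *Edem3* held without the livers of C and D (-0.78, limma adjusted p = 0.0176), whereas those of *Dnajc3* and *Stt3b* did not (0.0720 and 0.0897). The gene that rose was *Sec61b*, a subunit of the translocation channel (0.74, limma adjusted p = 0.0312).

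**Figure D3:**
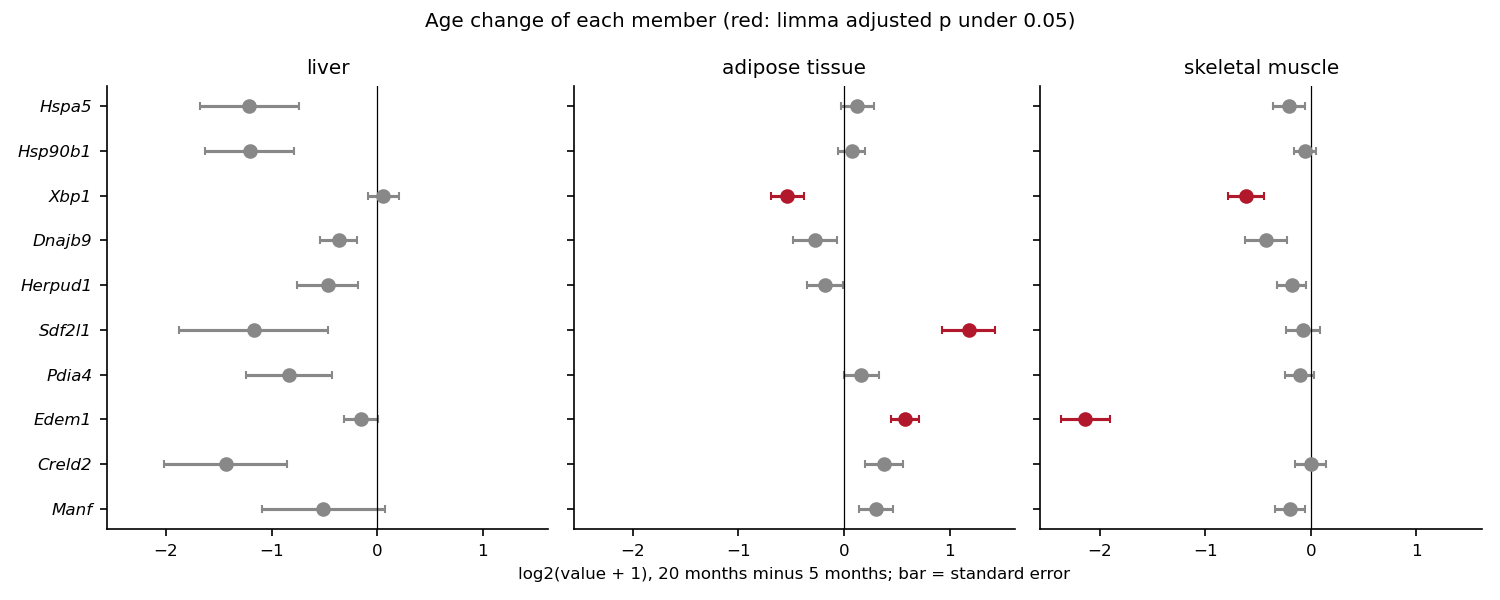
Difference between 20 and 5 months in log2(level + 1) of each member in liver, adipose tissue and skeletal muscle, with its standard error; red marks a limma adjusted p under 0.05. No member is red in liver, *Sdf2l1*, *Edem1* and *Xbp1* are in adipose tissue, and *Edem1* and *Xbp1* are in skeletal muscle.

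In omental adipose tissue, 3 members changed with age, *Sdf2l1* and *Edem1* upward (2 of 10, where 9.75% of genes rose) and *Xbp1* downward (1 of 10, where 9.35% fell), where 19.1% of 14005 genes changed. The median over the 10 members was 0.14, against 0.01 over all genes. *Sdf2l1* was at 7.56, 7.09, 11.6 and 11.8 at 5 months and at 14.1, 24.1, 36.2, 21.2 and 21.03 at 20 months. Each older sample exceeded every younger one, and the gene rose by 1.18 ± 0.251 (SE) on the log2 scale (limma adjusted p = 0.0206; exact two-sided permutation test, p = 0.0159). *Edem1* was at 70.4, 61.3, 71.0 and 69.9 at 5 months and at 77.1, 115, 119, 98.03 and 109 at 20 months. It rose by 0.58 ± 0.135 (SE) on the log2 scale (limma adjusted p = 0.0258), again with no overlap. *Xbp1* was at 161, 239, 162 and 136, and at 128, 115, 116, 111 and 118 at 20 months. The older samples lay within a narrow band below all younger ones, and the gene fell by 0.53 on the log2 scale (limma adjusted p = 0.0409). In all, the ages did not overlap for 3 of the 10 members and for 17.4% of genes.

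The remaining members in adipose tissue did not pass the test. *Hspa5* was at 322 ± 23.5 (SD, n = 4) and 355 ± 61.3 (SD, n = 5), a log2 difference of 0.13, and *Hsp90b1* at 289 ± 24.3 (SD, n = 4) and 305 ± 34.2 (SD, n = 5), a difference of 0.07. *Creld2* had a difference of 0.38 (limma adjusted p = 0.146; exact two-sided permutation test, p = 0.0476) and *Manf* of 0.30 (limma adjusted p = 0.186). *Pdia4*, *Dnajb9* and *Herpud1* lay between -0.27 and 0.16. The 3 calls were close to the threshold. Of the 9 fits without 1 sample, *Sdf2l1* was called in 7, *Edem1* in 3 and *Xbp1* in 2. Without the sample of mouse A, 0 members and 397 of 13714 genes passed, and without that of mouse B 0 members and 596 of 13696 genes. With all samples, 2674 of 14005 genes passed.

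Signals of other cell types moved with these changes in adipose tissue, and their part was not tested. The summed level of 7 macrophage markers was 693 to 1491 at 5 months and 908 to 5074 at 20 months, and 1 of the 7 passed the age test. *Lyz2*, the most abundant, was highest (3630) in sample 38, which was also highest for *Sdf2l1*, *Edem1*, *Creld2*, *Manf* and *Hspa5*. Of 8 plasma cell markers tested, 3 were higher at 20 months, with summed levels of 136 to 440 and 174 to 409. Mesothelial markers were lower for 4 of 6 (70.2 to 139 against 34.3 to 75.9). *Alb* was at 173 in sample 36 and 95.8 in sample 38, at most 0.643% of the lowest liver. Without both samples, an alternative chosen after seeing the data, *Sdf2l1* and *Edem1* rose by 1.16 and 0.64 (limma adjusted p = 0.0163 for both) and *Xbp1* did not pass (-0.57, limma adjusted p = 0.0771). Exocrine pancreas markers summed to 3.66 to 12.6 and 16.2 to 29.8, with *Pnlip* and *Amy2b* at 0 in every adipose sample.

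*Ern1*, *Atf6* and *Eif2ak3* had log2 differences of -0.63, -0.13 and 0.31 in adipose tissue, none past the threshold (limma adjusted p = 0.0842, 0.439 and 0.0598). Of 75 genes on the 5 related lists, 10 passed (13.3%, against 19.1% of all genes), with a median of 0.10. They were 6 higher and 4 lower, where 1365 and 1309 of all 14005 genes were. Of the higher genes, 3 belong to the 13 other disulfide enzymes, of which 13 had positive differences, with a median of 0.28. *Ero1lb*, which reoxidises disulfide isomerases, rose from 8.47 ± 0.673 (SD, n = 4) to 17.01 ± 3.04 (SD, n = 5), by 0.91 on the log2 scale (limma adjusted p = 0.00932). The other largest rises were those of *Edem2* (0.81), the signal peptidase subunit *Spcs1* (0.62) and the disulfide isomerase *Txndc5* (0.53), which is also on the list of plasma cell markers. The largest falls were those of *Ppp1r15a*, which encodes the GADD34 regulator of translation (-0.85), the ubiquitin-conjugating enzyme *Ube2j1* (-0.55), the pseudokinase *Trib3* (-0.54) and *Atf4*, a transcription factor downstream of PERK (-0.36). Of the 11 sensors and transducers tested, 3 were lower and 0 higher.

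In skeletal muscle, *Edem1* had the largest change of any member in any tissue. It was at 113, 122, 76.6 and 66.8 in mice A, B, C and D, and at 33.9, 21.3, 15.9, 18.2 and 15.7 at 20 months. Every older sample was below every younger one. The gene fell 4.51-fold, from 94.7 ± 27.2 (SD, n = 4) to 20.98 ± 7.56 (SD, n = 5), by 2.14 ± 0.235 (SE) on the log2 scale (limma adjusted p = 0.000917; exact two-sided permutation test, p = 0.0159). The call held in 9 of 9 fits that left out 1 sample, with log2 differences of -2.32 to -1.998, and in 10 of 10 other alternatives. *Edem1* rested on 220 or more reads in each sample, and *Gm35417*, a gene that overlaps it, had at most 1 read in any sample.

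*Xbp1* fell as well in skeletal muscle, by 0.61 on the log2 scale (limma adjusted p = 0.0314). It was at 109, 198, 119 and 137 at 5 months and at 117, 80.2, 77.6, 91.2 and 84.9 at 20 months, and sample 56 lay within the younger range. The call was lost in 6 of the 9 fits that left out 1 sample, among them the fit without mouse B (-0.43, limma adjusted p = 0.0578). Thus 2 of 10 members were called in skeletal muscle, both lower, where 19.3% of 12720 genes were called and 10.1% were lower, and 1 of 10 had ages that did not overlap, where 17.3% of genes did. The median of the members was -0.19 and that of all genes 0.02. *Hspa5* was at 190, 343, 215 and 220 at 5 months and at 240, 197, 195, 200 and 192 at 20 months. *Dnajb9* was at 102, 155, 96.0 and 87.7, and at 122, 75.3, 65.8, 76.0 and 70.5 at 20 months (log2 difference -0.42, limma adjusted p = 0.137). For both, mouse B and the 20-month sample 56 were the highest of their groups. *Sdf2l1*, *Creld2*, *Pdia4* and *Manf* had low levels, 1.15 to 13.5, and differences between -0.20 and 0.00.

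The cytosolic heat shock genes also moved with age in skeletal muscle, and their part in the fall of *Edem1* and *Xbp1* was not tested. Of 8, 6 were lower at 20 months. Their summed level was 3079 in A, 18529 in B, 4013 in C and 8241 in D, and 3110, 1748, 1634, 1780 and 1719 at 20 months. Sample 56, the highest of the older muscles in this sum, was also the highest for *Edem1*, *Xbp1*, *Hspa5* and *Dnajb9*. Among the younger muscles the order differed, since *Edem1* was at 113 in A, whose heat shock sum was the lowest. Macrophage markers were lower for 4 of 7 (116 to 201 against 67.5 to 132), and muscle fibre markers for 0 of 6.

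*Ern1*, *Atf6* and *Eif2ak3* had log2 differences of -0.35, -0.33 and -0.16 in skeletal muscle (limma adjusted p = 0.0923, 0.107 and 0.437). Of 74 related genes, 11 passed (14.9%, against 19.3% of all genes). They were 3 higher and 8 lower, where 1161 and 1290 of all 12720 genes were. *Ppp1r15a* fell most, from 252 ± 118 (SD, n = 4) to 98.9 ± 25.4 (SD, n = 5), by 1.27 on the log2 scale (limma adjusted p = 0.00704). *Sec61a1*, the pore of the translocation channel, fell by 0.66, *Stt3b* by 0.60 and *Atf6b*, a relative of *Atf6*, by 0.55. The genes that rose were *Ssr4*, a subunit of the translocon-associated complex (0.50), the disulfide isomerase *P4hb* (0.35) and *Derl1*, an ERAD membrane protein (0.30). The calls of *P4hb*, *Ssr4* and *Derl1* held in 1, 5 and 4 of the 9 fits that left out a sample. Other ERAD genes did not follow *Edem1*: of 16 tested, 2 were lower and 1 higher, with a median of -0.04.

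Whether the age change differed between tissues was tested in 1 fit over the 27 samples. Of the members, *Edem1* differed between skeletal muscle and both other tissues. Its change was higher by 2.72 ± 0.280 (SE) on the log2 scale in adipose tissue than in skeletal muscle (limma adjusted p = 9.13e-07) and by 1.98 in liver than in skeletal muscle (limma adjusted p = 9.08e-05). These were the only calls among the members for those pairs, where 14.7% and 17.5% of 15572 genes were called, and where 8.34% and 9.35% of all genes had a higher change than in skeletal muscle. With the mouse as a block, 3 members were called for liver against skeletal muscle, where 3071 of 15572 genes were. Between liver and adipose tissue, the changes of *Sdf2l1* (-2.35, limma adjusted p = 0.0259), *Creld2* (-1.81, limma adjusted p = 0.0354) and *Hsp90b1* (-1.28, limma adjusted p = 0.0355) were lower in liver, 3 of 10 members where 15.6% of genes were called and 6.97% were lower in liver. These 3 calls depended on the samples: of the 27 fits without 1 sample, *Sdf2l1* was called in 24, *Creld2* in 18 and *Hsp90b1* in 17. Without both livers of C and D, without C and without D, 0 members passed, where 1720, 1935 and 2048 genes did. Without the adipose sample of B 0 passed as well, where 1744 genes did. Without the liver of A there were 6, where 2102 genes were called.

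Among the tissues, liver had the highest levels of most members. At 5 months, 10 of 10 were higher in liver than in adipose tissue (36.5% of genes were) and 9 of 10 were higher in liver than in skeletal muscle (36%). Without the livers of C and D these counts were 7 and 9, and *Sdf2l1* (0.33), *Manf* (0.50) and *Xbp1* (0.28) did not pass between liver and adipose tissue (limma adjusted p = 0.486, 0.167 and 0.271). Adipose tissue exceeded skeletal muscle for 5 members and was lower for *Dnajb9* and *Herpud1*, where 41.9% and 30.9% of genes were higher and lower. *Pdia4* had the widest gap, 395 ± 250 (SD, n = 4) in liver, 62.3 ± 16.5 (SD, n = 4) in adipose tissue and 9.84 ± 0.970 (SD, n = 4) in skeletal muscle. *Dnajb9* was at 90.3 ± 21.3 (SD, n = 4) in liver and 110 ± 30.3 (SD, n = 4) in skeletal muscle, a log2 difference of -0.28 with a 95% interval of -0.74 to 0.18. At 20 months, 8 of 10 members were higher in liver than in adipose tissue (35.7% of genes), 9 of 10 were higher in liver than in skeletal muscle (39.2%), and adipose tissue exceeded skeletal muscle for 8 and was lower for the same pair of genes, where 42.1% and 33.9% of genes were. *Sdf2l1* did not follow this order at 20 months, with 16.5 ± 8.09 (SD, n = 5) in liver and 23.3 ± 8.06 (SD, n = 5) in adipose tissue (log2 difference -0.54, limma adjusted p = 0.302).

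These orders depend on scaling, since the most abundant genes take different shares of the reads in each tissue. When samples were rescaled on the sum without the 20 most abundant genes, the median gene shifted by -0.90 between liver and adipose tissue at 5 months and by -0.69 at 20 months. *Xbp1* was then lower in 5-month liver than in adipose tissue, by -0.57 (limma adjusted p = 0.00380), and at 20 months 3 members differed between these tissues, 2 of them higher in liver. The shift in the age comparison was 0.17 in liver and at most 0.07 in size in the other tissues.

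Divided by exon length (the union of GENCODE vM21 exons), the order of the members also differed between tissues. That union takes the exons of every annotated transcript. For *Manf* it is 3524 bases, longer than the RefSeq gene itself (chr9:106888753-106891938), so places within a tissue depend on the annotation. In liver at 20 months, *Hspa5* was at 154 ± 46.1 per kb (SD, n = 5) and *Hsp90b1* at 140 ± 30.2 per kb (SD, n = 5), closer to each other than the spread between samples, followed by *Herpud1* at 105 ± 21.1 per kb (SD, n = 5). In adipose tissue at 20 months, *Hspa5* (84.1 ± 14.5 per kb, SD, n = 5) and *Hsp90b1* (75.6 ± 8.49 per kb, SD, n = 5) again came first and *Manf* last (9.48 ± 1.72 per kb, SD, n = 5). In skeletal muscle at 20 months *Herpud1* came first (66.8 ± 2.53 per kb, SD, n = 5), ahead of *Hspa5* (48.4 ± 4.67 per kb, SD, n = 5), *Dnajb9* (32.1 ± 8.94 per kb, SD, n = 5) and *Hsp90b1* (28.5 ± 1.65 per kb, SD, n = 5), of which the last 2 did not differ beyond their spread. *Sdf2l1* was the lowest there, at 1.37 ± 0.241 per kb (SD, n = 5). *Edem1* moved from the sixth place at 5 months (14.7 ± 4.21 per kb, SD, n = 4) to the eighth at 20 months (3.25 ± 1.17 per kb, SD, n = 5).

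**Figure D4:**
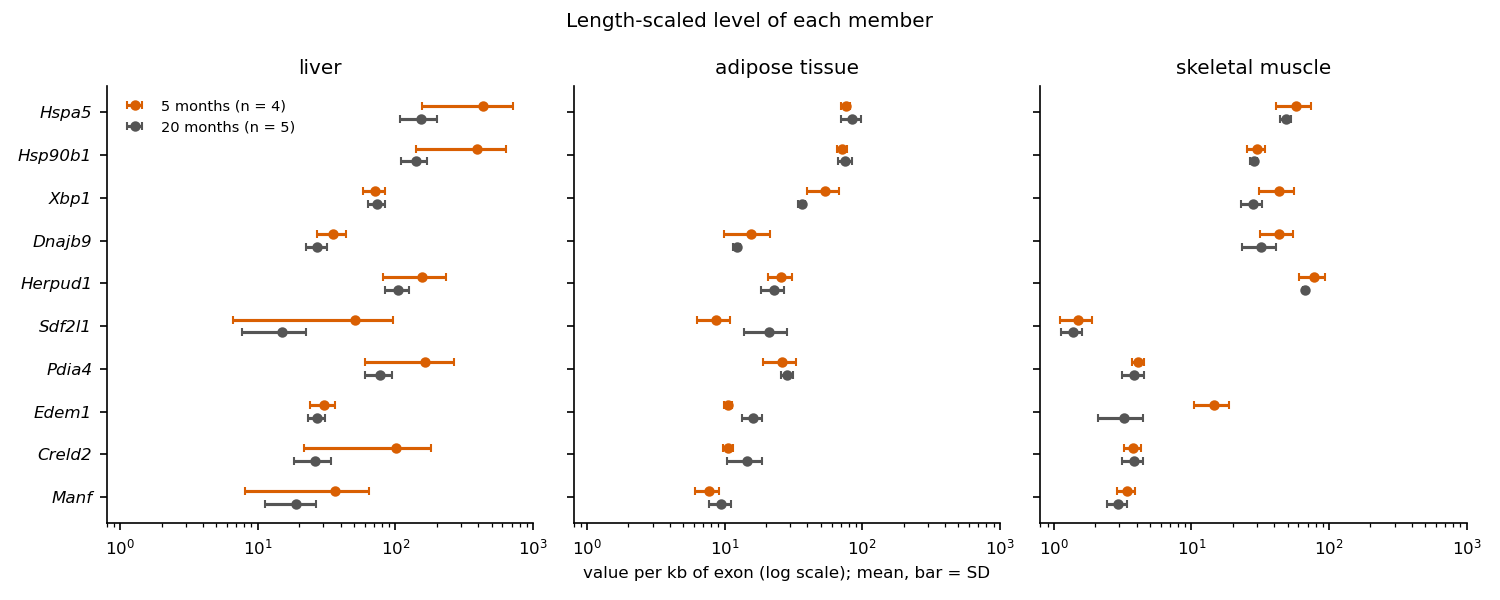
Level per kb of exon (log scale; mean, bar = SD) of each member in the 3 tissues at 5 months (orange, n = 4) and 20 months (grey, n = 5). *Hspa5* and *Hsp90b1* lead in liver and adipose tissue and *Herpud1* in skeletal muscle, and *Edem1* separates the ages in skeletal muscle.

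Deviations from the group means show which members varied together within groups. As a description over 27 samples, Pearson's r of a member with the mean of the other 9 was 0.974 for *Hsp90b1*, 0.970 for *Hspa5*, 0.950 for *Creld2*, 0.947 for *Manf* and 0.901 for *Sdf2l1*. It was 0.805 for *Pdia4* and between 0.396 and 0.509 for *Herpud1*, *Dnajb9*, *Edem1* and *Xbp1*. The 4 livers at 5 months weigh heavily in these values. Over the other 23 samples, *Hsp90b1* and *Hspa5* were at 0.902 and 0.868, *Manf* at 0.770, *Creld2* at 0.748 and *Sdf2l1* at 0.594, and *Pdia4* was at 0.244.

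Of 9815 other genes with a level of at least 1 in every sample, the 8 whose deviations were most like the mean of the members were *Hyou1* (r = 0.940 over 27 samples), *Slc35b1* (0.913), *Dnajb11* (0.903), *Pdia6* (0.903), *Pdia3* (0.887), *Calr* (0.880), *Sel1l* (0.804) and *Syvn1* (0.798). All but *Slc35b1*, a nucleotide transporter of the ER membrane, are on the lists of related ER genes. *Hyou1* and *Dnajb11* encode ER chaperones, *Pdia3* and *Pdia6* disulfide isomerases, and *Syvn1* the ubiquitin ligase of ERAD. Over the 23 samples without the 5-month livers, r was 0.80 for *Pdia3*, 0.721 for *Hyou1* and between 0.641 and 0.698 for *Slc35b1*, *Dnajb11*, *Pdia6* and *Calr*. It was 0.251 for *Sel1l* and 0.420 for *Syvn1*. Library, dissection and depth are shared by the values of a sample and enter each of these correlations.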

How the data were processed

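Poly-A RNA libraries were sequenced on a NovaSeq and processed by the authors in CLC Genomics Workbench 23.0. What the authors deposited, headed CPM, is a scaled signal that sums to 559419 to 1395315 per sample. The build and annotation used in CLC are not given in the sources used here; the submitters' processing notes name GRCm38.p6 and mm10. The design had taken the values to be CPM, and its tests were kept. In each sample 100% of values were whole multiples (within 0.001) of the value of 1 read, 0.0234 to 0.0806, which gave back the reads. Per the labels, RNA of adipose tissue and skeletal muscle came from another extraction kit than that of liver, whereas the study's methods name 1 kit for all. If the labels hold, kit and tissue cannot be told apart.

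Samples were grouped by their tissue and age labels. Of 48 within-group pairs of samples, 0 were identical, and chi-square over degrees of freedom was 9.81 or more. Among the 5-month livers it was 14.4 for C with D and 45.6 to 110 for the other pairs. The livers of C and D were thus alike over the genes as a whole, not in the members alone. Ages were compared within each tissue by limma 3.58.1 (R 4.3.3, variance trend) on log2(value + 1), over genes that reached a value of 1 in 4 or more samples, at a Benjamini-Hochberg adjusted p of 0.05. A fold on this scale understates changes of low genes. Differences between tissues came from 1 fit over 27 samples. For single members an exact permutation test (two-sided, 126 splits, scipy) was added. Alternatives were other pseudocounts, filters and scalings, edgeR 4.0.16 and DESeq2 1.42.0 on recovered reads, all samples in 1 fit, a block by mouse, and each sample left out. The fits were tested on simulated reads. The members and gene lists were chosen with earlier results of these data known. The genes named are the 10 members, *Ern1*, *Atf6* and *Eif2ak3*, in each tissue the 4 related genes with the largest rise and the 4 with the largest fall among those called, and the 8 genes most like the members' mean. *Derl3* and the cell markers fall outside this rule and were named after their values were seen. Mouse numbers pair the 5-month tissues: over 12 pairs, same-mouse deviations had r of -0.02 to 0.29, with a mean of 0.14. No protein sequences were used. The 14384695 to 25673919 reads per sample set the precision, and low members such as *Sdf2l1* in skeletal muscle rest on few reads.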

Additional observations from a re-analysis of the deposited data

Results flagged for a closer look

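The changes with age differed between tissues for 4 members, by the test of the difference itself. The change of *Edem1* in adipose tissue exceeded that in skeletal muscle by 2.72 on the log2 scale (limma adjusted p = 9.13e-07), and that in liver exceeded it by 1.98 (limma adjusted p = 9.08e-05). The changes of *Sdf2l1* (-2.35), *Creld2* (-1.81) and *Hsp90b1* (-1.28) were lower in liver than in adipose tissue. These 3 calls were all lost without the liver of mouse C, the liver of mouse D or the adipose sample of mouse B. Those of *Hsp90b1* and *Creld2* were also lost without some other samples. Of the 27 fits without 1 sample, *Sdf2l1* was called in 24, *Creld2* in 18 and *Hsp90b1* in 17. Both calls of *Edem1* were kept with each of the 27 samples left out in turn.

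A sample lay far from the others of its group for 4 of 60 combinations of member and group, where chance gives 3. These were *Hspa5* (240) and *Dnajb9* (122) in the 20-month muscle sample 56, both above the other 4 samples, *Edem1* in the adipose sample of the 5-month-old mouse B (61.3, the lowest), and *Edem1* in the 20-month liver sample 16 (130, the lowest). The spread of the 5-month livers was not marked by this measure, since the high livers come as a pair.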

How the results depend on the processing

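Of 1487 values of single genes under alternatives that kept or rescaled all samples or left out chosen pairs, 1365 kept their direction and their side of the threshold, 56 lost and 43 gained the call and 23 turned sign. In liver, 3 members changed with age by edgeR and 4 by DESeq2, by 1 fit over 27 samples and by that fit with the replicate block. In that order 2578 and 3463 of 12654 genes, and 3172 and 3213 of 15572, were called. Without the filter on low values, skeletal muscle had 1 member (1507 of 22100 genes called) and the difference between liver and adipose tissue 1 (2304 of 26600). That difference had 5 members by DESeq2 (2484 of 15572 genes called) and 0 without the livers of mice C and D (1720 of 15542). The difference between liver and skeletal muscle had 3 with a minimum mean of 5, 3 by edgeR, 5 by DESeq2, 2 after rescaling without the 20 most abundant genes and 3 with the replicate block, which pairs the tissues of the 5-month-old mice. In that order these fits called 2338 of 11219, 2322 of 15572, 2933 of 15572, 2202 of 15820 and 3071 of 15572 genes. The block moved no other count of members by more than 1.5 times. After the rescaling, 3 members differed between liver and adipose tissue at 20 months, where 12742 of 15820 genes did. The causes were not tested.

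Rescaling turned the age difference of *Edem1* (0.021) and *Eif2ak3* (0.052) in liver and of *Hsp90b1* in skeletal muscle (0.019). It turned the difference of changes of *Dnajb9* between liver and adipose tissue (0.14), and between adipose tissue and skeletal muscle those of *Hsp90b1* (-0.0046), *Xbp1* (-0.061) and *Herpud1* (-0.13). It also turned *Xbp1* (-0.57) between liver and adipose tissue and *Edem1* (0.28) between adipose tissue and skeletal muscle at 5 months, and *Edem1* (-0.0027) between liver and adipose tissue at 20 months. *Creld2* in skeletal muscle was at -0.00014 and -0.00062 with pseudocounts of 0.5 and 0.1, -0.0055 by DESeq2 and -0.0087 with median-of-ratios factors. Without the livers of mice C and D, the age differences of *Sdf2l1* (0.30), *Pdia4* (0.057), *Edem1* (0.094) and *Manf* (0.72) in liver turned. So did the differences from adipose tissue of *Dnajb9* (0.18) and *Manf* (0.41), and from skeletal muscle of *Sdf2l1* (0.37), *Pdia4* (0.16) and *Manf* (0.91).

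With each sample left out in turn, the members called numbered 0 to 5 for liver, 1 to 3 for skeletal muscle and 0 to 3 for adipose tissue. They numbered 0 to 6 for the difference between liver and adipose tissue and 1 to 6 between liver and skeletal muscle. Of all genes, 959 to 3557 were called for liver, 1158 to 3796 for skeletal muscle and 397 to 3748 for adipose tissue. For the differences, in the same order, 1744 to 3359 and 2022 to 3354 genes were called. Signs turned in the ranges of *Xbp1* in liver (-0.080 to 0.13) and, in skeletal muscle, of *Hsp90b1* (-0.12 to 0.040), *Sdf2l1* (-0.17 to 0.020) and *Creld2* (-0.074 to 0.066). They also turned for *Dnajb9* between adipose tissue and skeletal muscle (-0.027 to 0.35), liver and adipose tissue (-0.29 to 0.086) and liver and skeletal muscle (-0.11 to 0.21), and for *Manf* between liver and skeletal muscle (-0.96 to 0.098). Between adipose tissue and skeletal muscle they turned for *Herpud1* (-0.11 to 0.16) and *Xbp1* (-0.10 to 0.24).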
